A study of Homo sapiens with 6 samples.

Results

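Mitochondrial ribosomal protein genes are the nuclear genes for the protein parts of the ribosome that works inside mitochondria. They were taken here as every RefSeq GRCh38 protein-coding gene whose symbol is MRPL or MRPS followed by digits, with an optional A, B or C, plus AURKAIP1, DAP3 and PTCD3. This gave 80 of the 19974 protein-coding genes examined, 49 of them named for the large subunit and 31 for the small subunit. A gene was called marked in a library when the summit of a GABPA peak was no more than 1 kb from the start or end of its annotated span.

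The peaks come from chromatin immunoprecipitation sequencing (ChIP-seq, which maps where a protein sits on DNA) with 1 antibody against GABPA in A-375, a human melanoma cell line. There were 3 conditions, each with 1 GABPA library and 1 input library: cells with exon 2 of the gene for the GABP subunit B1 knocked out and TERT, the telomerase catalytic subunit, then knocked in; cells cut at ROSA26, a locus that serves as a control for editing itself; and parental A-375 cells with no knockout. Edited cells were grown from single sorted cells, so B1 loss, the TERT knock-in and the history of a clone cannot be told apart. The peak lists hold no expression values, so the cell line was not checked against marker genes and the B1 knockout was not checked at its own gene.

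GABP is an ETS-family transcription factor made of GABPA, which binds DNA through an ETS domain at GGAA-type sequences, and a B subunit, which does not bind DNA itself and carries the activation function. The mitochondrial ribosome translates the few proteins encoded by mitochondrial DNA, all of them parts of the respiratory chain and ATP synthase. Its small subunit decodes the messenger RNA, its large subunit joins the amino acids, and all of its proteins are made from nuclear genes and imported. GABP is a known activator of nuclear genes for mitochondrial proteins.

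Promoter sequences, from RefSeq on GRCh38.p14, show what the marked and unmarked genes look like at their starts. Each is read 5′ to 3′ in the direction of the gene, and capitals mark CCGGAAG, a common ETS motif, or its reverse complement CTTCCGG. A sequence with a match runs from 30 bases before the first match to at most 30 bases after the last, and a sequence with no capitals is the 60 bases just before the annotated start. The first set holds genes marked in all 3 libraries. They were chosen to show 1 match in a gene with a strong peak (MRPS31, AURKAIP1, MRPL16, MRPL3), several matches (MRPS34, MRPS22, MRPL51, MRPL20) or no match (MRPL18, MRPL1). Matches were counted at the most upstream start listed for each gene, and other annotated starts are not shown. At AURKAIP1 the summits of all 3 libraries lie outside the stretch shown. So do the B1 knockout and parental summits of MRPL1 and the ROSA26 summit of MRPL16.
MRPS31 (chr13:40771186-40771252, minus strand): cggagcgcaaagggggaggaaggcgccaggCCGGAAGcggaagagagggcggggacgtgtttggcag
AURKAIP1 (chr1:1375178-1375234, minus strand): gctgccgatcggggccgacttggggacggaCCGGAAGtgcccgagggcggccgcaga
MRPL16 (chr11:59810749-59810814, minus strand): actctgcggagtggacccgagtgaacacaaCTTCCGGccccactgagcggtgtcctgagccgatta
MRPL3 (chr3:131502967-131503033, minus strand): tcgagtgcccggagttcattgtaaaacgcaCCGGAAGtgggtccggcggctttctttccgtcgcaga
MRPS34 (chr16:1773117-1773235, minus strand): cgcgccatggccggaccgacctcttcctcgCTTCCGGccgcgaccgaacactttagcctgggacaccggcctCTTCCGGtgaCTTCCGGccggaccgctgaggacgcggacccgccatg
MRPS22 (chr3:139343877-139344023, plus strand): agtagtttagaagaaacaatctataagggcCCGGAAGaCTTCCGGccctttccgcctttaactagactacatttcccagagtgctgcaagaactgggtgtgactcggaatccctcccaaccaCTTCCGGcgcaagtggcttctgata
MRPL51 (chr12:6493330-6493411, minus strand): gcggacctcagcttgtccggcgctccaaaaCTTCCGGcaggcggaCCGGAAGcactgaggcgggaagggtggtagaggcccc
MRPL20 (chr1:1407278-1407367, minus strand): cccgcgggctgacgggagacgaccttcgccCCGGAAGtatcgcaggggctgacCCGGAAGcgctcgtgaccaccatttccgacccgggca
MRPL18 (chr6:159789752-159789811, plus strand): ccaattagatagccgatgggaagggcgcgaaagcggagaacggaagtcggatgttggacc
MRPL1 (chr4:77862770-77862829, plus strand): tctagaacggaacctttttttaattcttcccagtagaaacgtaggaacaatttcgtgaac

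The next set holds genes marked in both controls but not in the B1 knockout (MRPS33, MRPL54, MRPL12), genes marked in the ROSA26 library alone (MRPS16, MRPL17), and genes marked in no library (MRPS2, DAP3, MRPL11). The ROSA26 summits of MRPL12 and MRPL17 lie outside the stretches shown.
MRPS33 (chr7:141014923-141014982, minus strand): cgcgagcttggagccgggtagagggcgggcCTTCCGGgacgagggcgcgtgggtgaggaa
MRPL54 (chr19:3762631-3762697, plus strand): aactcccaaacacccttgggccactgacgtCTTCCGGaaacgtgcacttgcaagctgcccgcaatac
MRPL12 (chr17:81703307-81703366, plus strand): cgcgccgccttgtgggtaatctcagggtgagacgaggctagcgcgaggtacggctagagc
MRPS16 (chr10:73252615-73252669, minus strand): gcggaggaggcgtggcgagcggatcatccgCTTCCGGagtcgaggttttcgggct
MRPL17 (chr11:6683341-6683400, minus strand): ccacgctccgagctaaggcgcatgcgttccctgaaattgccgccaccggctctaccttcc
MRPS2 (chr9:135499905-135499964, plus strand): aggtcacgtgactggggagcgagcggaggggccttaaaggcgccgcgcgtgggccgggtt
DAP3 (chr1:155689031-155689090, plus strand): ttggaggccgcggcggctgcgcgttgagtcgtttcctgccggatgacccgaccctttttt
MRPL11 (chr11:66438849-66438908, minus strand): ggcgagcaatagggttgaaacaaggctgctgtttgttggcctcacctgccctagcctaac

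The 3 libraries differed in how many peaks they held: 1660 in the B1 knockout, 3857 in the ROSA26 knockout and 3024 in the parental cells. The authors' fold and −log10 p of each peak together fix the number of reads at its summit and the background it was tested against. The most common background, on the scale of ChIP reads, was 9.86 reads in the B1 knockout, against 14.2 in ROSA26 and 15.4 in parental cells, so the knockout background was 64.0% of the parental one. The median peak had 82 reads at its summit in the B1 knockout, 122 in ROSA26 and 132 in parental cells. Each condition had 1 library, so no difference between conditions could be tested. Intervals below are exact 95% binomial (Clopper-Pearson) intervals, or order-statistic intervals for medians, and cover counting error over genes only. Fold enrichment, the authors' ratio of signal at the summit to background, is used to describe and rank peaks within their own list.

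GABPA peaks stood at mitochondrial ribosomal protein genes more often than at protein-coding genes in general in each library. In the B1 knockout 28 of 80 members were marked (35.0%, interval 24.7 to 46.5%), against 9.32% of all genes. In the ROSA26 library 40 of 80 were marked (50%, 38.6 to 61.4%), against 18.5% of all genes. In the parental library 36 of 80 were marked (45.0%, 33.8 to 56.5%), against 15.5% of all genes. The 36 members marked in parental cells were all marked in ROSA26 cells as well, where 15.3% of all genes were marked in both controls. Each marked member had a strongest peak of its own: no strongest peak served as that of 2 members.

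The members fell into 4 groups by where they were marked. There were 28 marked in all 3 libraries, 8 marked in both controls only, 4 marked in ROSA26 only, and 40 marked in none. The 23 unmarked large subunit genes were MRPL4, MRPL9, MRPL11, MRPL14, MRPL15, MRPL19, MRPL22, MRPL23, MRPL24, MRPL32, MRPL34, MRPL35, MRPL36, MRPL37, MRPL41, MRPL42, MRPL44, MRPL45, MRPL46, MRPL49, MRPL50, MRPL55 and MRPL57. The 17 unmarked small subunit genes were MRPS2, MRPS5, MRPS6, MRPS7, MRPS9, MRPS11, MRPS14, MRPS15, MRPS17, MRPS24, MRPS25, MRPS27, MRPS28, MRPS30, MRPS35, DAP3 and PTCD3, of which DAP3 is a GTP-binding protein and PTCD3 a pentatricopeptide repeat protein. No member was marked in the B1 knockout without both controls, and none in parental cells alone. Of the 36 members marked in both controls, 28 were also marked in the B1 knockout (77.8%, 60.8 to 89.9%), against 60.4% of the 3063 genes marked in both controls.

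**Figure D1:**
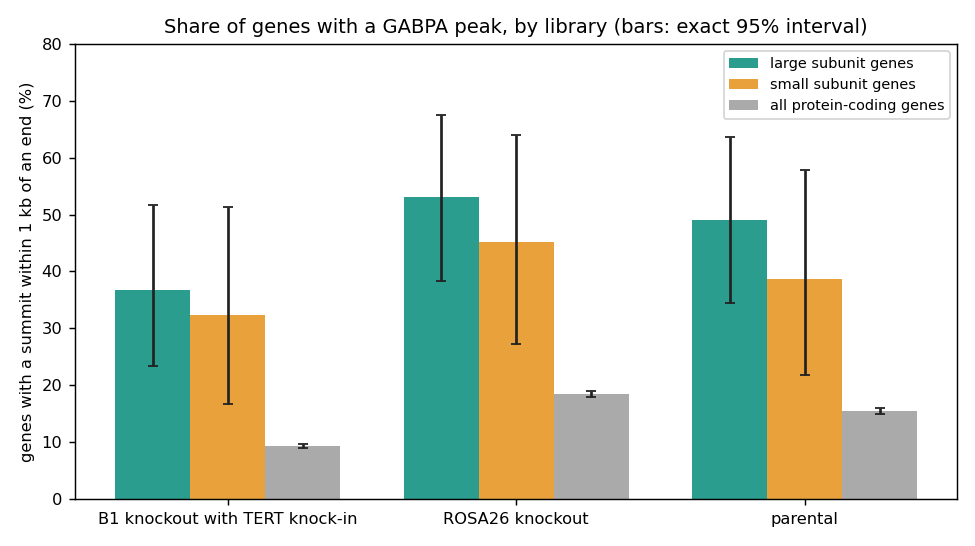
Share of large subunit genes (49), small subunit genes (31) and all protein-coding genes (19974) with a GABPA summit within 1 kb of a span end, in percent, for the B1 knockout, ROSA26 knockout and parental libraries; lines are exact 95% intervals. Both subunits stand above all genes in each library, and their intervals overlap one another.

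Large subunit genes were marked in 18 of 49 cases in the B1 knockout (36.7%), 26 of 49 in ROSA26 (53.1%) and 24 of 49 in parental cells (48.98%). Small subunit genes were marked in 10 of 31 cases in the B1 knockout (32.3%), 14 of 31 in ROSA26 (45.2%) and 12 of 31 in parental cells (38.7%). The large minus small difference was 4.48 percentage points in the B1 knockout (Newcombe 95% interval −16.9 to 24.1), 7.90 in ROSA26 (−14.0 to 28.7) and 10.3 in parental cells (−11.7 to 30.5). All 3 intervals include 0. None of them excludes a large subunit excess of 24.1 points or a small subunit excess of 11.7 points. Among genes marked in both controls, 18 of 24 large subunit genes were also marked in the B1 knockout (75%, 53.3 to 90.2%), against 10 of 12 small subunit genes (83.3%, 51.6 to 97.9%). That difference of −8.33 points had an interval of −31.6 to 22.7. With lists of equal length its sign turned, to 11.1 points (−9.45 to 43.5), so the subunits could not be separated on this count either.

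Peaks at the members were mostly in the upper part of their lists. The median fold of the members' strongest peaks was 8.11 in the B1 knockout (28 genes), 8.56 in ROSA26 (40 genes) and 9.51 in parental cells (36 genes). Over all marked genes the medians were 6.04, 7.11 and 7.03, in the same order of libraries. Members at or above the median fold of all peaks in their list numbered 21 of 28 in the B1 knockout, 30 of 40 in ROSA26 and 28 of 36 in parental cells. Over all marked genes the same counts were 989 of 1861, 2171 of 3693 and 1734 of 3091. In the B1 knockout the members' count was 16 of 18 for large subunit genes and 5 of 10 for small subunit genes. Their median folds there were 8.47 (interval 6.57 to 9.89) and 6.05 (3.37 to 16.5). In parental cells the medians of the subunits lay closer, at 9.51 for large (7.63 to 9.99) and 9.42 for small subunit genes (6.11 to 17.1). The small subunit genes spanned 3.18 to 16.8 in the B1 knockout and 2.47 to 23.6 in parental cells, and the large subunit genes 4.21 to 18.0 and 3.35 to 18.3 in the same libraries.

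Among small subunit genes the highest fold in the B1 knockout and parental lists was that of MRPS31, a mitochondria-specific protein of the small subunit, on chr13:40729128-40771190. Its fold was 16.8 in the B1 knockout, 22.7 in ROSA26 and 23.6 in parental cells, on 253, 452 and 411 summit reads. No gene in the parental list had a strongest peak with a higher fold. AURKAIP1, first known as a partner of Aurora A kinase and later placed in the small subunit, had folds of 15.9 in the B1 knockout, 23.1 in ROSA26 and 23.01 in parental cells, on 343, 529 and 507 reads. It had the highest fold of any member in ROSA26 and the most summit reads of any member in each library. MRPS34, a small subunit protein that is needed for the subunit's stability, had folds of 16.5 in the B1 knockout, 16.9 in ROSA26 and 17.1 in parental cells. These 3 genes stood near the top of all 3 lists by fold, and the lowest of their percentiles was 96.4, for MRPS34 in ROSA26.

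MRPS18C and MRPS23 completed the top 5 small subunit genes by parental fold. MRPS18C, like MRPS18A and MRPS18B a human relative of bacterial S18, had folds of 6.86 in the B1 knockout, 15.0 in ROSA26 and 12.4 in parental cells. MRPS23, a small subunit protein, had folds of 4.65 in the B1 knockout, 10.5 in ROSA26 and 11.4 in parental cells. Within the lists, MRPS18C stood at percentile 62.4 in the B1 knockout, 93.6 in ROSA26 and 88.7 in parental cells, and MRPS23 at 32.0, 77.9 and 84.4. The lists hold 1660, 3857 and 3024 peaks and the shorter knockout list has fewer weak peaks, so percentiles are not comparable between lists and no change in rank is read from them.

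The other small subunit genes marked in all 3 libraries were MRPS22, MRPS18B, MRPS10, MRPS18A and MRPS21. MRPS22, in which mutations cause a mitochondrial disease, had folds of 9.61 in the B1 knockout, 11.7 in ROSA26 and 10.7 in parental cells, at percentiles 83.3, 83.4 and 80.8 of these lists. MRPS18B had 5.25, 8.64 and 8.10, and MRPS10, the relative of bacterial S10, had 4.98, 8.49 and 6.65 in the same order of libraries. MRPS18A, which carries a small subunit name but is placed in the large subunit by ribosome structures, had 3.37 in the B1 knockout, 7.89 in ROSA26 and 6.11 in parental cells, and MRPS21, the relative of bacterial S21, had 3.18, 6.56 and 5.48. MRPS18A and MRPS21 were at percentiles 6.93 and 4.67 of the B1 knockout list, near its lower end.

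Among large subunit genes the highest parental fold was that of MRPL21, the relative of bacterial L21, on chr11:68891278-68903832. Its fold was 9.89 in the B1 knockout, 19.8 in ROSA26 and 18.3 in parental cells, on 245, 371 and 343 reads. The summit lay 15 to 18 bp outside the MRPL21 span and also within 1 kb of IGHMBP2, a helicase gene, so the peak cannot be assigned to either gene alone. MRPL16, related to a bacterial protein near the peptidyl transferase centre, had folds of 18.0 in the B1 knockout, 17.4 in ROSA26 and 14.2 in parental cells, on 250, 412 and 363 reads. It had the highest fold of any member in the B1 knockout list, at percentile 98.8.

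MRPL3, MRPL53 and MRPL13 followed. MRPL3, a relative of bacterial L3, had folds of 11.9 in the B1 knockout, 19.8 in ROSA26 and 14.0 in parental cells. MRPL53, a mitochondria-specific protein, had 11.5 in the B1 knockout, 11.1 in ROSA26 and 14.0 in parental cells. MRPL13, a relative of bacterial L13, had 6.57 in the B1 knockout, 8.16 in ROSA26 and 13.4 in parental cells. All 5 leading large subunit genes were marked in all 3 libraries, as were the 5 leading small subunit genes.

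**Figure D2:**
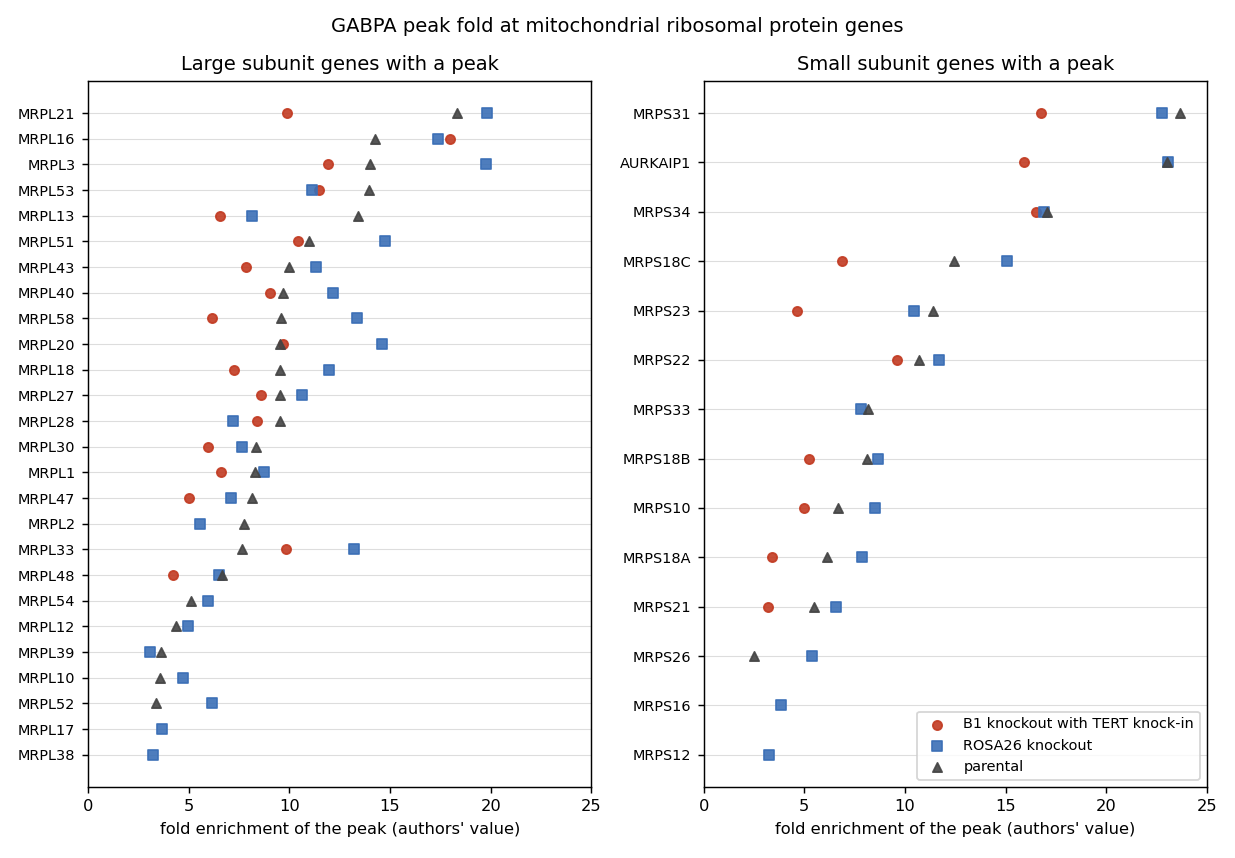
Fold enrichment (the authors' value, linear axis) of the strongest GABPA peak at each of the 26 large and 14 small subunit genes marked in at least 1 library, ordered by parental fold; circles are the B1 knockout, squares ROSA26 and triangles parental cells, with 1 library each. Genes with no circle lie toward the bottom of both panels, except MRPS33 and MRPL2, which sit among genes that have all 3 points.

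The other 13 large subunit genes marked in all 3 libraries had folds of 4.21 to 10.4 in the B1 knockout, 6.49 to 14.8 in ROSA26 and 6.63 to 11.0 in parental cells. MRPL51, a mitochondria-specific protein, was highest of these in all 3 lists, with 10.4 in the B1 knockout, 14.8 in ROSA26 and 11.0 in parental cells. MRPL48, a protein of the central protuberance, was lowest in all 3 lists, with 4.21, 6.49 and 6.63. MRPL58, which keeps the catalytic motif of a peptide release factor and can free stalled ribosomes, had 6.14 in the B1 knockout, 13.4 in ROSA26 and 9.57 in parental cells. MRPL33 and MRPL20, relatives of bacterial L33 and L20, had B1 knockout folds of 9.81 and 9.70, ROSA26 folds of 13.2 and 14.6, and parental folds of 7.63 and 9.55. MRPL1, the mitochondrial form of the L1 stalk protein, had 6.62, 8.75 and 8.28 in the 3 libraries.

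The rest of these genes shared their peak with a neighbouring gene. MRPL43 (7.83 in the B1 knockout, 11.3 in ROSA26 and 9.99 in parental cells) lies beside TWNK, the helicase of mitochondrial DNA replication. MRPL47 (5.04, 7.09 and 8.16) lies beside NDUFB5, a complex I subunit, MRPL18 (7.23, 11.9 and 9.55) beside TCP1, a cytosolic chaperonin subunit, and MRPL40 (9.06, 12.2 and 9.67) beside HIRA, a histone chaperone. MRPL27 (8.57, 10.6 and 9.51) lies beside EME1, MRPL28 (8.38, 7.22 and 9.51) beside PGAP6, and MRPL30 (5.95, 7.66 and 8.34) beside MITD1. Of the genes with values already given, MRPL51 shared its peak with NCAPD2, a condensin subunit, MRPL53 with CCDC142, MRPL13 with MTBP, MRPS34 with EME2, MRPS18C with HELQ and MRPS18B with PPP1R10.

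Over the 28 members marked in all 3 libraries, Spearman's correlation of fold across genes was 0.83 between the B1 knockout and ROSA26, 0.77 between the B1 knockout and parental cells, and 0.79 between ROSA26 and parental cells. These describe 28 genes in 1 library each, whose folds share the promoter sequence, and are given with no test. Over the 1851 genes marked in all 3 libraries the value was 0.74 between the B1 knockout and parental cells and 0.84 between ROSA26 and parental cells.

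The 8 members marked in both controls only (of all genes marked in both controls, 39.6% lacked a B1 knockout peak) differed widely in the strength of their control peaks. The strongest was MRPS33, a mitochondria-specific small subunit protein on chr7:141002610-141014952. It had no peak in the B1 knockout list, against folds of 7.80 in ROSA26 (192 reads) and 8.16 in parental cells (160 reads). At the knockout background, peaks of those folds would have a −log10 p of 66.3 and 53.9, where the B1 knockout list reaches down to 4.74 and has a median of 34.2. This scaling assumes that the fold would be the same in the knockout, and the cause of the missing peak was not tested. Of all genes marked in both controls with a parental fold above that of MRPS33, 1197 of 1245 were also marked in the B1 knockout (96.1%), and so were all 22 members above it.

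MRPL2, a relative of the bacterial protein at the peptidyl transferase centre, came next, with no B1 knockout peak and folds of 5.57 in ROSA26 and 7.74 in parental cells, on 122 and 127 reads. Its −log10 p at the knockout background would be 33.5 and 41.4, near the median of the knockout list. The summit lay 134 to 150 bp beyond the MRPL2 span and also near CUL7, a cullin gene.

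The other 6 had no B1 knockout peak and lower parental folds, while MRPL54 and MRPL52 were above MRPL2 in ROSA26. MRPL54 had 5.98 in ROSA26 and 5.12 in parental cells, and its peak also lay near APBA3. MRPL12 and MRPL10, which form the flexible stalk that engages translation factors, had 4.97 and 4.71 in ROSA26 and 4.36 and 3.59 in parental cells, and the MRPL10 peak also lay near LRRC46. MRPL39 had 3.06 in ROSA26 and 3.63 in parental cells, and MRPL52 had 6.16 and 3.35. MRPS26 had 5.39 in ROSA26 and 2.47 in parental cells, with summits 113 bp apart and GNRH2 close by. MRPS26 had the lowest fold of any member in a control list, at percentile 0.661 of the parental peaks. For these 8 genes the −log10 p at the knockout background ranged from 9.49 to 66.3 for ROSA26 peaks and from 6.69 to 53.9 for parental peaks. It was above the tenth percentile of the B1 knockout list (13.6) for 7 of 8 ROSA26 peaks and 5 of 8 parental peaks.

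The 4 genes marked in ROSA26 alone, a pattern shown by 3.12% of all genes, had no peak in the B1 knockout or parental lists and weak peaks in ROSA26. MRPL17, a relative of bacterial L17, had a fold of 3.68 on 55 reads. MRPL38, a mitochondria-specific protein of the central protuberance, had 3.21 on 68 reads. MRPS12, the relative of the bacterial protein at the decoding centre, had 3.26 on 74 reads with SARS2, the mitochondrial seryl-tRNA synthetase gene, at the same peak. MRPS16, a relative of bacterial S16, had 3.83 on 63 reads. All 4 stood in the lowest 26.5% of the ROSA26 list by fold.

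Whether a member stayed marked in the B1 knockout followed how strong its control peak was. Genes marked in both controls were split into 4 equal bins by parental fold, with bounds of 2.05, 4.72, 7.08, 10.3 and 23.6. Members marked in the B1 knockout numbered 0 of 5 in the lowest bin, 4 of 5 in the next, 12 of 14 in the next and 12 of 12 in the highest. Over all genes the shares were 8.36%, 48.2%, 87.3% and 97.8%. With each bin's share among all genes applied to the members' own bins, 26.8 of 36 members would be marked in the B1 knockout, against 28 observed. For large subunit genes the same sum gave 17.6 of 24 against 18 observed, and for small subunit genes 9.14 of 12 against 10 observed. Binned by ROSA26 fold, it gave 24.9 of 36 against 28. Both sums lay between 60.4% of 36 genes and the 28 observed. The weakest member that kept a peak was MRPS21, at a parental fold of 5.48, and 6 of the 8 that did not were below it.

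**Figure D3:**
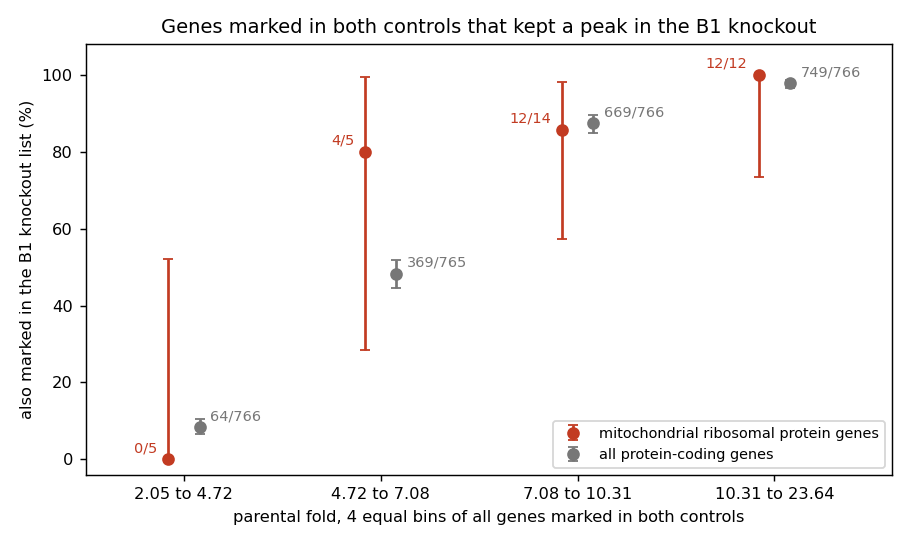
Percent of genes marked in both controls that were also marked in the B1 knockout, by bin of parental fold, for mitochondrial ribosomal protein genes (red) and all protein-coding genes (grey); numbers are genes marked over genes in the bin and lines are exact 95% intervals. The share climbs with fold in both groups, to 12 of 12 members and 749 of 766 genes in the highest bin.

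The lists differ in length, so the counts were also taken from the 1660 peaks with the highest −log10 p in each list. Then 28 members were marked in the B1 knockout, 27 in ROSA26 and 28 in parental cells, against 9.32%, 9.46% and 9.5% of all genes. Of the 26 members marked in both controls, 25 were marked in the B1 knockout (96.2%), against 89% of all genes. MRPS33 was the exception.

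The summits clustered at gene starts. The strongest summit lay within 100 bp of a span end at 24 of 28 members in the B1 knockout, 33 of 40 in ROSA26 and 28 of 36 in parental cells. Over all marked genes the counts were 1166 of 1861, 2128 of 3693 and 1824 of 3091. Where RefSeq gave an annotated start, the summit lay within 100 bp of it at 23 of 26 members in the B1 knockout, 32 of 36 in ROSA26 and 27 of 32 in parental cells, and upstream of it at 22, 29 and 25 of these. The median position was 27 bp upstream in the B1 knockout, 29.5 bp in ROSA26 and 24 bp in parental cells. The summit farthest from a start was that of MRPS18B, at 330 to 334 bp upstream in all 3 libraries, which was the member summit farthest from a span end as well.

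**Figure D4:**
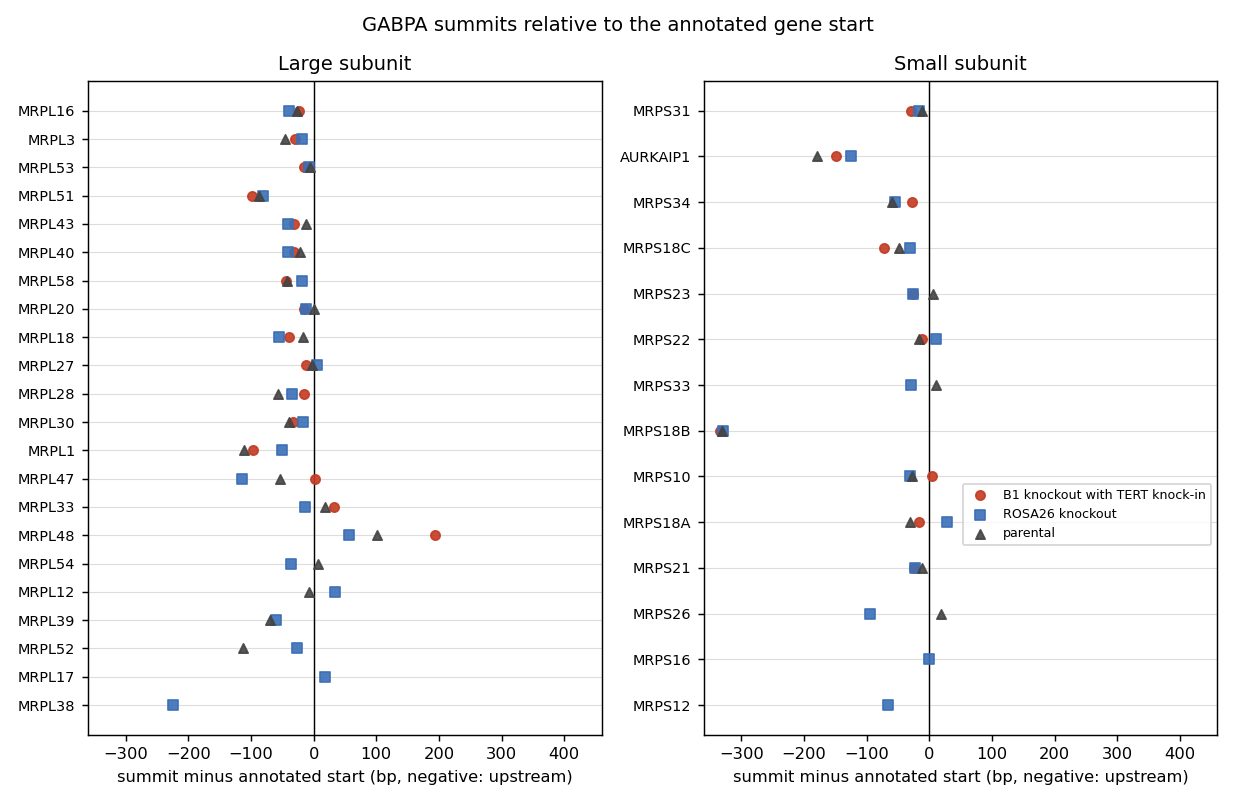
Position of the strongest GABPA summit relative to the annotated gene start (bp, negative values upstream) for each marked member with an annotated start, large subunit left and small subunit right; circles are the B1 knockout, squares ROSA26 and triangles parental cells. Most points lie between the start and 100 bp upstream, and the points of MRPL48 and MRPL47 are the most spread.

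The same summit was found in each library to within short distances. Over the 28 members marked in all 3, the distance between the outermost of the 3 summits had a median of 27 bp and ranged from 3 bp at MRPL21 to 137 bp at MRPL48. It was at most 50 bp at 23 of 28 members, against 80.4% of all genes marked in all 3 libraries, whose median was 29 bp. MRPL48 had its summit 194 bp downstream of the start in the B1 knockout, 57 bp in ROSA26 and 101 bp in parental cells. MRPL47 had it 2 bp downstream in the B1 knockout, 115 bp upstream in ROSA26 and 54 bp upstream in parental cells. These were the widest spreads, with 64 and 54 summit reads in the B1 knockout. The other members with as few reads were MRPS18A (50 reads, spread 60 bp), MRPS18B (58 reads, 4 bp) and MRPL30 (64 reads, 22 bp). Whether the spread goes with the number of reads was not tested.

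MRPL24 and MRPL44 counted as unmarked although each had a peak in all 3 libraries. The peaks lay inside their annotated spans, 1475 to 1485 bp from the nearest end at MRPL24 and 6553 to 6568 bp at MRPL44, and hence outside the 1 kb limit. Yet they lay 143 to 153 bp upstream of the annotated start of MRPL24 and 41 to 56 bp upstream of that of MRPL44. MRPL24, a relative of bacterial L24, had folds of 8.66 in the B1 knockout, 13.2 in ROSA26 and 11.5 in parental cells, at a peak also near HDGF. MRPL44, which has a ribonuclease-like fold, had folds of 9.88 in the B1 knockout, 14.4 in ROSA26 and 10.3 in parental cells. With summits counted within 1 kb of the annotated start, for the 72 members that have one, 28 were marked in the B1 knockout, 38 in ROSA26 and 34 in parental cells, against 10.3%, 20% and 16.9% of all genes. Then 28 of 34 members marked in both controls were marked in the B1 knockout (82.4%), against 61% of all genes.

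Only MRPS18B had a further peak in all 3 libraries. It lay 460 to 493 bp beyond the other end of the gene, near ATAT1, with folds of 4.49 in the B1 knockout, 6.82 in ROSA26 and 5.14 in parental cells. MRPL54 had a second, weaker peak in ROSA26 alone, at a fold of 2.65.

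Mitochondrial ribosomal protein genes often lie close to another gene. Another protein-coding gene started or ended within 1 kb of an end of 43 of 80 members (53.8%), against 28.6% of all genes. The strongest summit was also within 1 kb of another gene's end at 14 of 28 marked members in the B1 knockout, 19 of 40 in ROSA26 and 18 of 36 in parental cells. The shares over all marked genes were 46.7%, 42.2% and 43.5%. In the parental library this held for 14 of 24 large subunit genes and 4 of 12 small subunit genes. Members with a close neighbour were marked in parental cells at 20 of 43 (46.5%) and members without one at 16 of 37 (43.2%). Over all genes those shares were 28.5% and 10.3%. Being marked was thus about equally frequent in members with and without a close neighbour, unlike over all genes, and this contrast was not tested. The counts of the subunits went opposite ways, but their intervals overlap widely and this was not tested either. Large subunit genes were marked in parental cells at 15 of 28 with a close neighbour (33.9 to 72.5%) and 9 of 21 without (21.8 to 66.0%). Small subunit genes were marked there at 5 of 15 (11.8 to 61.6%) and 7 of 16 (19.8 to 70.1%).

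The motif CCGGAAG was searched on both strands in the 300 bases from 250 before to 50 after the start. Where a gene had several annotated starts, the most upstream one listed was used. The motif was found mostly at marked members. It was present in 30 of 72 member promoters (41.7%, 30.2 to 53.9%), against 14.1% of 15813 promoters over all genes. Large subunit genes held it in 17 of 42 promoters and small subunit genes in 13 of 30. MRPL2, MRPL10, MRPL13, MRPL15, MRPL21, MRPL23, MRPL35 and MRPS28 are not in the promoter table. A match describes the letters present and is not a mapped binding site.

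Of the 30 members with the motif, 23 were marked in the B1 knockout, 30 in ROSA26 and 27 in parental cells. Of the 42 without it, 3, 6 and 5 were marked in the same libraries. Over all genes with the motif the marked shares were 43.4%, 68.7% and 62.4%, and over those without it 4.73%, 11.9% and 9.27%. The motif was found in none of the 36 unmarked members with a promoter, interval 0 to 9.74%, against 5.50% of all unmarked genes. It was found in 23 of 26 members marked in all 3 libraries (88.5%), 4 of 6 marked in both controls only and 3 of 4 marked in ROSA26 only. Over all genes marked in all 3 libraries the share was 60.4%. The 3 members marked in all 3 libraries without it were MRPL18, MRPL1 and MRPS18B. At MRPS18B the summits of all 3 libraries lay upstream of the stretch searched. The sequence at its summits was thus not searched, and whether it holds the motif is not known here. The 36 unmarked promoters include those of MRPL24 and MRPL44, which also lack the motif. Both genes have a peak near their annotated start in all 3 libraries and are unmarked only by the 1 kb limit from span ends. Counted by annotated start, they would join the members with a peak but without the motif.

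The number of matches per promoter also went with the peaks. Members with 2 or more, overlapping matches counted apart, were MRPL20, MRPL27, MRPL51, MRPL53, MRPL58, MRPS21, MRPS22 and MRPS34, and all 8 were marked in all 3 libraries. Of the 22 members with 1 match, 15 were marked in the B1 knockout, 22 in ROSA26 and 19 in parental cells, and 15 of the 19 marked in both controls were marked in the B1 knockout. Over all genes the marked shares were 74.7% in the B1 knockout, 93.4% in ROSA26 and 89.1% in parental cells with 2 or more matches, and 36.1%, 62.9% and 56.1% with 1. The 8 of 8 members are thus close to the share of all genes in both controls. Over all genes marked in both controls, the share also marked in the B1 knockout was 83.8% with 2 or more matches, 64.5% with 1 and 51.3% with none. MRPS22 and MRPS34 had 3 matches each, as their sequences show. In MRPS22 a pair of matches in opposite directions begins 8 bases apart, and in MRPS34 the closest pair begins 10 bases apart. The median fold of marked members with 0, 1 and 2 or more matches was 6.62, 7.83 and 9.66 in the B1 knockout, 6.80, 7.84 and 12.5 in ROSA26, and 8.10, 8.34 and 10.1 in parental cells. Over all marked genes it was 5.46, 6.09 and 7.01 in the B1 knockout, 5.82, 7.90 and 11.7 in ROSA26, and 5.88, 7.46 and 10.5 in parental cells. MRPS21, with 2 matches, had the lowest fold of any member in the B1 knockout.

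**Figure D5:**
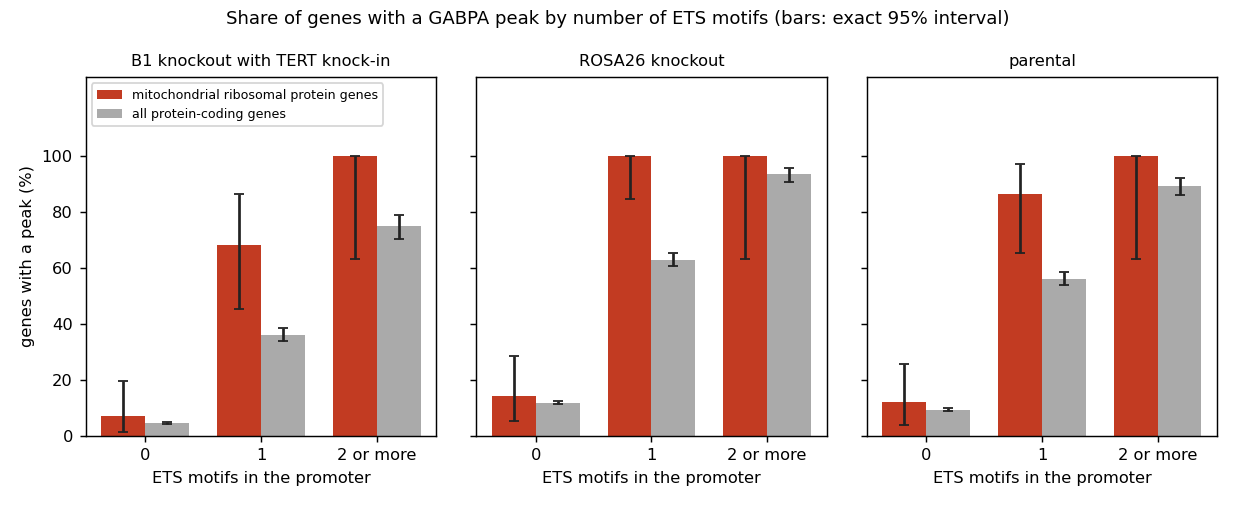
Percent of genes with a GABPA peak by number of CCGGAAG matches (either strand) in the promoter, for mitochondrial ribosomal protein genes (red) and all protein-coding genes (grey) in the B1 knockout, ROSA26 and parental libraries; lines are exact 95% intervals. The 8 members with 2 or more matches are marked in every library, and members without a match are marked at 7.14%, 14.3% and 11.9%. Peaks are counted within 1 kb of a span end, which leaves MRPL24 and MRPL44 unmarked.

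At most marked members with a match, the summit lay close to the motif. The median distance from a member's strongest summit to the centre of the nearest match was 19 bp in the B1 knockout (23 members), 20 bp in ROSA26 (30 members) and 19 bp in parental cells (27 members). It was within 50 bp at 19, 22 and 20 of these. No such distance over all genes is given for comparison. The farthest were MRPL48, at 254 bp in the B1 knockout, and MRPS18C and AURKAIP1, at 189 bp in ROSA26 and 185 bp in parental cells. At AURKAIP1 the single match sits 6 bp downstream of the start while the summit lies 125 to 179 bp upstream, so its strong peak is not centred on the match. At MRPS31 the summit fell on the centre of the match in the B1 knockout and within 18 bp of it in both controls.

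The motif GCGCATGC, a sequence bound by NRF1, another activator of mitochondrial genes, was present in 6 of 72 member promoters (8.33%), against 4.27% of all promoters. MRPL17, marked in ROSA26 alone, had 3 matches to it and none to CCGGAAG. Median GC content of the promoters was 60.7% in members and 62.7% over all genes.

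Genes for factors that assemble or serve the mitochondrial ribosome gave a similar picture. Of 39 assembly, initiation, elongation, release and RNA-modifying factors, 18 were marked in the B1 knockout, 21 in ROSA26 and 18 in parental cells, and all 18 marked in both controls were marked in the B1 knockout. GFM2, which helps split the ribosome after termination, had folds of 19.6 in the B1 knockout, 18.1 in ROSA26 and 14.4 in parental cells. TUFM, the mitochondrial elongation factor Tu, had 8.44, 16.2 and 16.5, and MTERF4, which takes part in joining the subunits, had 12.4, 18.3 and 15.9. TACO1, a translational activator of a cytochrome oxidase subunit, had 12.02 in the B1 knockout, 15.7 in ROSA26 and 11.9 in parental cells. NSUN4, OXA1L and MRM1 were marked in ROSA26 alone, with folds of 3.53, 3.42 and 1.99. GADD45GIP1 and CHCHD1, which are themselves parts of the mitochondrial ribosome but fall outside the symbol rule, were marked in no library.

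The 81 cytosolic ribosomal protein genes were marked at 34 in the B1 knockout, 58 in ROSA26 and 52 in parental cells, and 34 of the 52 marked in both controls were marked in the B1 knockout (65.4%, 50.9 to 78.0%), close to the 60.4% of all genes. The 36 complex I subunit genes were marked at 9, 15 and 14, and 9 of the 14 marked in both controls were marked in the B1 knockout (64.3%, 35.1 to 87.2%), also close to the share of all genes. Beside these, 77.8% of mitochondrial ribosomal protein genes and 18 of 18 translation factor genes (81.5 to 100%) were marked in the B1 knockout as well as both controls. In ROSA26 and parental cells the cytosolic ribosomal protein genes had the highest marked share of the 4 lists, at 71.6% and 64.2%. The differences between the lists were not tested.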

How the data were processed

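Per the submitters' processing notes, reads were handled with Bowtie2, SAMtools and MACS2 on hg38; their versions and settings are not given in the sources used. Each GABPA library has 1 list of peaks deposited by the authors, made per library and not from pooled replicates. For each peak the authors give a fold enrichment (a linear ratio over background), −log10 p and −log10 q values, and a score. The score was not used. The 3 input samples were not analysed here, and there were no replicates.

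Summits were placed on gene spans from the RefSeq table (GRCh38.p14, the same chromosomes as hg38), for chromosomes 1 to 22 and X (protein-coding genes only); 8 peaks of the B1 knockout lay on other sequences. Where several summits were within 1 kb (1000 bp), the highest fold stood for the gene. Summit reads and background were obtained by solving the MACS2 Poisson formula for each peak's fold and −log10 p, and all peaks were solved to within 0.01. "At the knockout background" means reads and background multiplied by the ratio of the libraries' most common backgrounds. For this ratio the backgrounds were taken after the scaling factor solved for each library. They were then 9.1 in the B1 knockout, 14.2 in ROSA26 and 13.3 in parental cells. Percentiles rank a peak by fold within its own list. Promoters (300 bases) were matched by gene ID for 72 of 80 members and 15813 genes, at the most upstream start listed for each gene. The scripts were tested on simulated data. Python 3.11.15, pandas 2.3.3, NumPy 2.4.6, SciPy 1.17.1 and matplotlib 3.10.9 were used.

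The members and lists were chosen with earlier results of these data known. Named in full were the 5 members of each subunit with the highest parental fold, every member marked in some but not all libraries, those with the widest summit spread, and those whose peak lay near another gene. Alternatives were other distances (500 bp and 2 kb), the whole span, any base of the peak, the nearest gene only, the annotated start, lists of equal length, −log10 q of at least 10, overlap of the peaks themselves, members with no close neighbour, structure-based subunits, and other motifs.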

Additional observations from a re-analysis of the deposited data

How the results depend on the processing

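Of 134 alternative values over 19 results, 130 stayed inside the 95% interval of the reported value, or within 1.5 times of a reported count, and 4 did not. With lists of equal length, 96.2% (25 of 26) of members marked in both controls were marked in the B1 knockout, in place of 77.8%; this setting removes the weaker control peaks. With the shorter motif CGGAA, 100% of the 26 members marked in all 3 libraries held it, and so did 47.2% (17 of 36) of unmarked members; with the longer CCGGAAGT, 38.5% (10 of 26) held it. With CCGGAAG the shares were 88.5% of members marked in all 3 libraries and 0% of unmarked members, with MRPL24 and MRPL44 counted as unmarked. The shorter and longer motifs match more and fewer promoters by construction. No paired analysis was possible because each condition had 1 library and no test was run. For the same reason no replicate could be left out. The large minus small difference in genes that kept a peak was −8.33 points as reported and 11.1 points with lists of equal length, and both intervals include 0. On the scale of ChIP reads, the B1 knockout background was 64.0% of the parental one. Scaled to the knockout background by the ratio given above, 7 of 8 ROSA26 peaks of the members without a knockout peak were above the tenth percentile of the knockout list. So were 5 of 8 of their parental peaks, and the part of depth was not tested.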
